A study of Cannabis sativa with 12 samples.

Results

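The comparison described here set hemp hypocotyls of day 9 (H9) against hypocotyls of day 6 (H6), counted in days after sowing, and asked which annotated genes rose and which fell over those days. Its members were all 3622 contigs of the deposited expression table, read in 6 of the 12 libraries: 3 of H9 and 3 of H6. Each library came from a pool of 20 whole hypocotyls of Cannabis sativa cv. Santhica 27, picked at random across incubators. All pools belonged to a single experimental batch and shared the same long-day regime, warmer in the light than in the dark. No treatment or genetic change separated the groups, so age was the labelled difference. The other 6 libraries (H15 and H20, hypocotyls of day 15 and day 20) entered the same statistical model and are compared only at the end.

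The hypocotyl is the stem between root and cotyledons. It first lengthens, with thin primary walls of cellulose, xyloglucan and pectin that yield to turgor. It then thickens: a cambium divides, xylem and bast fibers form, and their secondary walls receive cellulose, xylan and, in xylem above all, lignin. In hemp these cells are the source of the woody core and of the bast fibers used in textiles.

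Expression levels are given as RPKM, the number of uniquely mapped reads divided by contig length and by the mapped reads of the library (reads per kilobase and megaread), for the 3 libraries of a group in the order of their replicate numbers. A contig was called higher or lower in H9 when edgeR's quasi-likelihood F test gave an adjusted p (Benjamini-Hochberg over 3622 contigs) under 0.05 and the log2 fold change of H9 against H6 exceeded 1 in either direction, a factor of 2. The words rose and fell are used only for contigs called in this way. Values after ± beside a log2 fold change are approximate standard errors, the absolute change divided by the square root of the F statistic. The authors had kept only contigs that differed among the 4 time points, and had removed contigs with too few reads in some library. All shares are therefore shares of that selection, not of the transcriptome, and a gene silent in 1 stage cannot be among the members. Names were given to contigs by similarity to Arabidopsis, several contigs can share a name, and the roles given below are those known in Arabidopsis unless stated otherwise. Because whole hypocotyls were ground, more cells of a type and more RNA per cell cannot be told apart.

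Mapped reads ranged from 19075118 to 20193024 in the H9 libraries and from 13413478 to 16522495 in the H6 libraries. The smallest count of any contig was 11 to 13 reads in H9 and 11 to 12 reads in H6. The members held 31.1 to 31.6% of the mapped reads in H9 and 35.6 to 36.8% in H6. The median deviation of a library from the mean of its group was 0.103 to 0.127 on the log2(RPKM + 1) scale in H9 and 0.105 to 0.154 in H6, with the third library of H6 the farthest. Transcripts of green tissue were abundant, and these alone do not tell stem from cotyledon. The most abundant contig was CAB1 (contig 126), a chlorophyll a/b binding protein of the light-harvesting antenna. It had 6254, 7589 and 7643 RPKM in H9 and 6197, 9276 and 9758 RPKM in H6. Named root genes were scarce, the 4 contigs of that list adding up to 30.7 to 38.5 RPKM in H9 and 17.5 to 21.8 RPKM in H6.

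Of the 3622 contigs, 1305 were called (36.0%): 647 were higher in H9 (17.9%) and 658 were lower (18.2%). Under the median-of-ratios scaling of DESeq2, which placed the median contig 0.23 higher on the log2 scale, the counts were 909 higher and 458 lower, that is 66.5% of calls higher against 49.6% in the fit reported here. All 647 higher calls were also called higher there, and 458 of the 658 lower ones were called lower. The groups did not overlap in RPKM for 2703 contigs (74.6%), and 2707 (74.7%) had an adjusted p under 0.05 when no fold limit was set. Falls went further than rises: 152 contigs fell and 103 rose by more than 2 on the log2 scale, and 51 fell and 16 rose by more than 3. A name or description was available for 3209 contigs, and 413 had no annotation, of which 77 were called higher and 89 lower.

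Sorted into 46 lists by function, 1149 contigs showed an uneven picture. Genes of heat shock, plastid ribosomes, flavonoids, photosystems and co-chaperones were mostly lower in H9 where they were called. Genes of laccases, secondary wall cellulose, xylan, wall transcription factors, nucleoli and one-carbon metabolism were higher where they were called. For many other lists the shares lay near those of all contigs, 36.0% called, 17.9% higher and 18.2% lower.

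**Figure D1:**
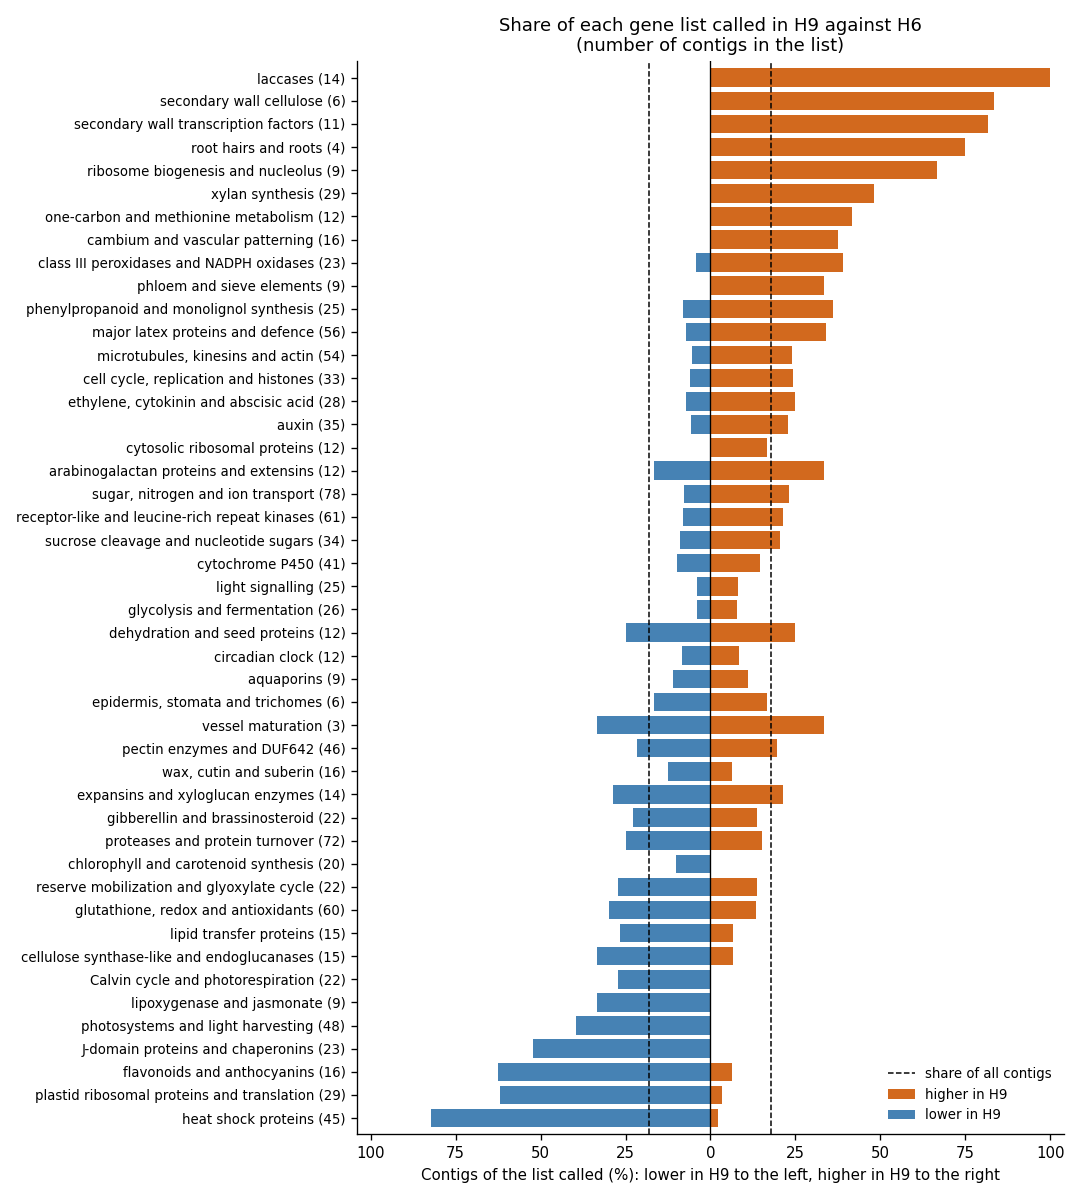
Share of the contigs of each gene list (y axis, number of contigs in brackets) called higher (orange, right) or lower (blue, left) in H9 against H6, in percent on the x axis, with dashed lines at the shares of all contigs, 17.9% higher and 18.2% lower. Laccases stand at the top with 14 of 14 contigs higher, and heat shock proteins at the bottom with 37 of 45 lower.

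Heat shock proteins gave the largest changes of the comparison. They are chaperones that keep other proteins from clumping or refold them, made in bulk in heat and, for some, in seeds and young organs. Of 45 contigs, 37 fell in H9 and 1 rose, with a median log2 fold change of -2.79 against 0.03 over all contigs. Several of them, including the heat stress transcription factors and the contig with the largest fall, joined the list after their values had been seen. The counts, the median and the read shares of this list therefore include members added with their values known. Together the 45 contigs took 0.32 to 0.37% of the mapped reads in H9 and 3.76 to 4.19% in H6. Without them the other members held 30.8 to 31.3% of the mapped reads in H9 and 31.7 to 32.6% in H6, so the heat shock contigs made up most of the difference between the groups in the reads taken by the members.

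Small heat shock proteins were among the furthest falls. Contig 1629, which resembles a class I small heat shock protein, had 3.38, 2.83 and 1.36 RPKM in H9, against 781, 862 and 1746 RPKM in H6 (log2 fold change -8.82 ± 0.39, adjusted p = 3.52e-09), and this was the largest change of all named contigs. HSP17.6II (contig 453), a class II small heat shock protein, had 16.5, 17.5 and 10.2 RPKM in H9, against 2873, 3485 and 4417 RPKM in H6 (log2 fold change -7.95 ± 0.25, adjusted p = 1.30e-10). In both, each H6 library lay over 100 times above each H9 library. AT2G29500 (contig 212), another small heat shock protein and among the most abundant in H6, had 72.4, 67.99 and 37.8 RPKM in H9, against 4506, 4456 and 3593 RPKM in H6 (log2 fold change -6.16 ± 0.25). AT5G37670 (contig 718), whose protein is sent to peroxisomes, had 8.10, 5.67 and 4.07 RPKM in H9, against 586, 689 and 917 RPKM in H6 (log2 fold change -6.95 ± 0.29). AT1G53540 (contig 187), of class I, had 14.1, 11.7 and 4.23 RPKM in H9, against 638, 553 and 684 RPKM in H6 (log2 fold change -5.99 ± 0.38). A contig described only as a low molecular weight heat shock protein (contig 396) had 11.6, 11.2 and 13.7 RPKM in H9, against 1051, 1188 and 1094 RPKM in H6 (log2 fold change -6.53 ± 0.17), and its 3 H6 libraries were close to each other. Heat shock protein 18 (contig 118) had 9.55, 12.1 and 5.83 RPKM in H9, against 948, 1032 and 2989 RPKM in H6, with the third H6 library far above the other two, and a log2 fold change of -7.52 ± 0.49, or -6.77 without that library.

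The large chaperones followed the same course. HSP90.1 (contig 256), the heat-inducible cytosolic HSP90, had 15.3, 13.04 and 13.9 RPKM in H9, against 3297, 2669 and 2138 RPKM in H6 (log2 fold change -7.60 ± 0.20, adjusted p = 4.17e-11), 192 times lower in mean RPKM. AtHSP101 (contig 156), the disaggregase that pulls proteins out of aggregates, had 8.67, 5.96 and 5.09 RPKM in H9, against 1278, 1027 and 847 RPKM in H6 (log2 fold change -7.34 ± 0.28). BAG6 (contig 415), a calmodulin-binding co-chaperone, was the most abundant of the list in H6 and had 654, 663 and 332 RPKM in H9, against 3389, 4146 and 8598 RPKM in H6 (log2 fold change -3.31 ± 0.35). The plastid chaperone cpHsc70-1 (contig 470) had 122, 106 and 132 RPKM in H9 and 200.5, 201 and 181 RPKM in H6 and, with a log2 fold change of -0.71 ± 0.12, stayed under the limit. Of the regulators, HSFA2 (contig 8688), a transcription factor that sustains the heat response, had 2.47, 1.67 and 1.22 RPKM in H9, against 80.1, 84.3 and 69.4 RPKM in H6 (log2 fold change -5.45 ± 0.31). HSF4 (contig 1120) and HSF A4A (contig 1985), 2 other heat stress factors, fell less, with log2 fold changes of -2.09 ± 0.15 and -1.12 ± 0.11. HSFB3 (contig 18033) was the member that rose, with 8.01, 9.52 and 6.79 RPKM in H9 and 2.47, 1.66 and 2.89 RPKM in H6 (log2 fold change 1.77 ± 0.22).

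**Figure D2:**
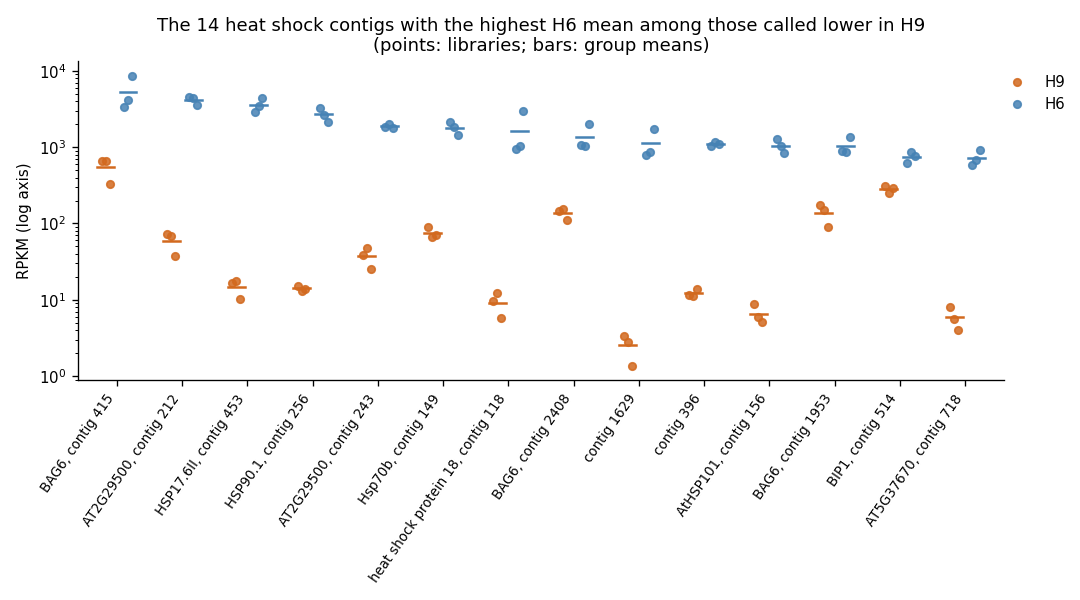
RPKM on a log axis of the 14 heat shock contigs with the highest H6 mean among those called lower in H9 (x axis), with H9 libraries in orange to the left of H6 libraries in blue and bars at the group means. The H9 points lie between 1.36 and 663 RPKM and the H6 points between 586 and 8598 RPKM, and within every contig the groups are apart.

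Partners of these chaperones fell too. In the list of J-domain proteins, which hand clients to HSP70, and of chaperonins, 12 of 23 contigs fell and 0 rose. ATJ3 (contig 9995), a J-domain protein, had 1.12, 2.04 and 1.80 RPKM in H9, against 31.6, 32.8 and 57.3 RPKM in H6 (log2 fold change -4.63 ± 0.46). CPN20 (contig 1933), the lid of the plastid chaperonin, had 116, 115 and 119 RPKM in H9, against 422, 424 and 330.0 RPKM in H6 (log2 fold change -1.76 ± 0.12). Members of this list did not all fall: AT4G36040 (contig 3210), a small J-domain protein, had 477, 565 and 474 RPKM in H9 and 319, 285 and 293 RPKM in H6 (log2 fold change 0.74 ± 0.10). Other contigs outside these lists had the same pattern. AT5G48570 (contig 530) and contig 319 both encode peptidylprolyl isomerases, enzymes that turn proline bonds during folding. AT5G48570 had 67.2, 60.2 and 63.4 RPKM in H9, against 4049.9, 3564 and 3081 RPKM in H6 (log2 fold change -5.82 ± 0.16). Contig 319 had 27.9, 31.5 and 17.7 RPKM in H9, against 1586, 1803 and 1436 RPKM in H6 (log2 fold change -5.98 ± 0.27). APX2 (contig 1671), a cytosolic ascorbate peroxidase that removes hydrogen peroxide in heat and strong light, had 6.89, 5.95 and 4.06 RPKM in H9, against 514, 301 and 348 RPKM in H6 (log2 fold change -6.12 ± 0.25). The thylakoid protease FTSH6 (contig 8802) had 1.70, 0.87 and 0.81 RPKM in H9, against 30.6, 10.1 and 25.6 RPKM in H6, and the metalloprotease-like EGY3 (contig 5828) had 5.51, 4.56 and 4.27 RPKM in H9, against 137, 82.4 and 66.1 RPKM in H6. AT3G10020 (contig 781) and AT2G45380 (contig 488), which have no described function in the table, fell with log2 fold changes of -6.60 ± 0.29 and -6.39 ± 0.28.

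Photosystem genes were lower in H9 where they were called. Among photosystem and light-harvesting contigs 19 of 48 fell and 0 rose, with a median log2 fold change of -0.91. DESeq2's scaling left 11 falls. PSBQ-2 (contig 230), of the oxygen-evolving complex of photosystem II, had 303, 305 and 335 RPKM in H9, against 776, 860.2 and 924 RPKM in H6 (log2 fold change -1.45 ± 0.11, adjusted p = 2.11e-07). PSBP-1 (contig 509), its neighbour in that complex, had 376, 312 and 381 RPKM in H9, against 705, 814 and 794 RPKM in H6 (log2 fold change -1.12 ± 0.11). NDF4 (contig 4925), of the cyclic electron flow around photosystem I, fell the furthest of the list, with 3.70, 3.81 and 3.48 RPKM in H9, against 15.2, 15.9 and 25.6 RPKM in H6 (log2 fold change -2.39 ± 0.33). The antenna protein CAB1 named above did not follow, with a log2 fold change of -0.24 ± 0.17 and overlapping groups. Summed over the list, levels were 14542 to 16377 RPKM in H9 and 20426 to 25897 RPKM in H6.

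In the Calvin cycle and photorespiration list 6 of 22 contigs fell (27.3%, against 18.2% of all contigs) and 0 rose. Under DESeq2's scaling 5 were lower and 1 higher, and 1 was higher without the second H6 or the first H9 library. RBCS1A (contig 1110), the small subunit of Rubisco, had 327, 385 and 351 RPKM in H9, against 772, 896 and 890.1 RPKM in H6 (log2 fold change -1.28 ± 0.11). CP12-2 (contig 251), a small regulator that binds Calvin cycle enzymes in the dark, had 141, 166 and 140.2 RPKM in H9, against 420.0, 478 and 608 RPKM in H6 (log2 fold change -1.77 ± 0.13). RCA, the activase of Rubisco, was represented by contigs that parted: contig 1404 had 15.8, 14.5 and 12.6 RPKM in H9, against 124, 102 and 112 RPKM in H6 (log2 fold change -2.99 ± 0.18), whereas the more abundant contig 1241 had 658, 579 and 629 RPKM in H9 and 691, 589 and 622 RPKM in H6 and overlapped. In the list of chlorophyll and carotenoid synthesis, 2 of 20 fell (10.0%, against 18.2% of all contigs) and 0 rose. DESeq2's scaling turned this to 1 lower and 2 higher. The count of falls was 5 without the first H6 library, 4 (with 1 rise) without the third H9 library, and 1 without the third H6 or the second H9 library. CHLM (contig 3936), a methyltransferase on the way to chlorophyll, had 44.4, 35.8 and 45.5 RPKM in H9, against 96.05, 121 and 115 RPKM in H6 (log2 fold change -1.42 ± 0.12).

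Ribosomal genes of the plastid and of the cytosol had median changes on opposite sides of 0. For plastid ribosomal proteins and translation 18 of 29 contigs fell and 1 rose, with a median log2 fold change of -1.12, and 10 falls under DESeq2's scaling. RPL12-C (contig 4777), of the stalk of the plastid large subunit, had 70.5, 69.5 and 66.4 RPKM in H9, against 175, 231 and 268 RPKM in H6 (log2 fold change -1.72 ± 0.14, adjusted p = 4.59e-07). RPL4 (contig 2037) had 56.7, 59.02 and 64.01 RPKM in H9, against 105, 139 and 152 RPKM in H6 (log2 fold change -1.15 ± 0.13). For cytosolic ribosomal proteins 2 of 12 rose (16.7%, against 17.9% of all contigs) and 0 fell. All 12 had log2 fold changes between 0.63 and 1.10, so the count hung on the limit: 10 rose under DESeq2's scaling, 5 without the second H6 library, 4 without the first H9 library, and 1 without the first or the third H6 or the second H9 library. RPL10B (contig 2054) had 643, 709.7 and 676 RPKM in H9 and 347, 425 and 381 RPKM in H6 and, with a log2 fold change of 0.80 ± 0.11, remained under the limit, although its groups were apart. AT4G16720 (contig 2214), the large-subunit protein L15, had 68.9, 77.1 and 75.9 RPKM in H9, against 37.6, 39.8 and 30.98 RPKM in H6; its log2 fold change of 1.02 ± 0.12 became 0.93 without the third H6 library and 0.99 without the third H9 library. Factors that assemble ribosomes in the nucleolus were higher: 6 of 9 rose and 0 fell, with 9 higher under DESeq2's scaling. IMP4 (contig 12836), of the complex that processes the small-subunit RNA, had 20.98, 22.2 and 22.4 RPKM in H9, against 7.82, 8.99 and 9.64 RPKM in H6 (log2 fold change 1.29 ± 0.13). PUM24 (contig 13407), a pumilio protein of the nucleolus, had 27.5, 28.7 and 28.7 RPKM in H9, against 11.04, 12.4 and 11.2 RPKM in H6 (log2 fold change 1.28 ± 0.10).

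**Figure D3:**
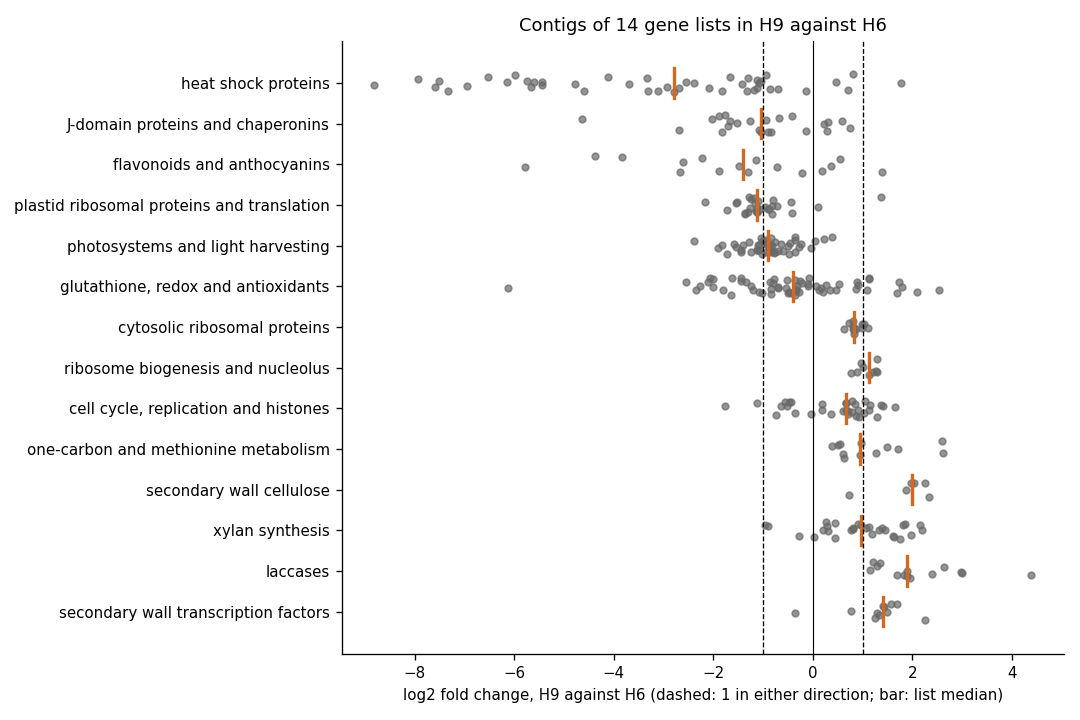
Log2 fold change of H9 against H6 (x axis) for each contig of 14 gene lists (rows), with bars at the list medians and dashed lines at 1 in either direction. The heat shock list reaches down to -8.82 around a median of -2.79, the plastid ribosomal list is centred at -1.12, the 12 cytosolic ribosomal contigs lie between 0.63 and 1.10, and every laccase lies above 1.

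Flavonoid genes had the second lowest list median, after heat shock proteins. Flavonoids and anthocyanins are pigments and ultraviolet screens of young stems, made from the phenylpropanoid stock that also feeds lignin. Of 16 contigs 10 fell and 1 rose, with a median log2 fold change of -1.40. Flavanone-3-hydroxylase (contig 977) is counted here and joined the list after its values had been seen. Chalcone synthase, the entry enzyme (TT4, contig 6536), had 19.3, 9.77 and 7.13 RPKM in H9, against 130.3, 166 and 217 RPKM in H6 (log2 fold change -3.85 ± 0.36, adjusted p = 1.59e-06). A chalcone isomerase family member (AT5G05270, contig 10760) had 25.3, 21.9 and 18.98 RPKM in H9, against 75.9, 100.2 and 132 RPKM in H6 (log2 fold change -2.24 ± 0.20). Flavanone-3-hydroxylase (contig 977), the next step, had 1.93, 0.95 and 0.60 RPKM in H9, against 41.4, 68.7 and 80.4 RPKM in H6 (log2 fold change -5.78 ± 0.52, adjusted p = 1.14e-06), the 15th largest fall. LDOX (contig 1041), which makes the coloured anthocyanidins, had 7.35, 4.15 and 7.62 RPKM in H9, against 90.6, 140.4 and 163 RPKM in H6 (log2 fold change -4.37 ± 0.48). The anthocyanin regulator MYB114 (contig 8740) had 27.6, 31.4 and 20.8 RPKM in H9, against 78.3, 91.6 and 123 RPKM in H6 (log2 fold change -1.88 ± 0.28). The first enzymes, the late enzyme and the regulator were thus all lower in each H9 library than in each H6 library. TT7, the flavonoid 3'-hydroxylase, was represented by 4 contigs, of which contig 9157 rose (40.5, 53.8 and 42.3 RPKM in H9 and 17.01, 18.00 and 16.5 RPKM in H6), contig 10622 fell (14.2, 5.53 and 8.63 RPKM in H9 and 17.1, 22.3 and 22.9 RPKM in H6) and the most abundant, contig 1655, was not called (126, 107 and 98.7 RPKM in H9 and 104, 91.7 and 93.95 RPKM in H6).

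Defence against oxidation was lower in part. In the list of glutathione, redox and antioxidant genes 18 of 60 fell and 8 rose. GSTU25 (contig 1971), a tau class glutathione transferase, had 141, 143 and 91.9 RPKM in H9, against 692, 616 and 876 RPKM in H6 (log2 fold change -2.56 ± 0.19). GSTU19 (contig 437), of the same class, had 210.3, 212 and 136 RPKM in H9, against 837, 587 and 798 RPKM in H6 (log2 fold change -2.01 ± 0.19). CDSP32 (contig 574), a plastid thioredoxin of drought and oxidative stress, had 101, 101 and 91.4 RPKM in H9, against 228, 302 and 382 RPKM in H6 (log2 fold change -1.65 ± 0.17). An abundant catalase (contig 369) had 2274, 2722 and 2475 RPKM in H9 and 2896, 2544 and 2412 RPKM in H6 and overlapped. Lipoxygenases start the route to jasmonate, and 3 of 9 contigs of that list fell (33.3%) and 0 rose. LOX1 (contig 46) had 14.6, 25.2 and 14.3 RPKM in H9, against 66.8, 54.7 and 92.9 RPKM in H6 (log2 fold change -2.01 ± 0.27), and a contig matched to AtLOX2 (contig 584) had 39.5, 67.1 and 36.8 RPKM in H9, against 170.3, 168 and 233 RPKM in H6 (log2 fold change -2.01 ± 0.47).

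Genes for stores and for proteolysis changed in both directions, as did all contigs, of which 18.2% fell and 17.9% rose. Of 22 contigs for the use of reserves 6 fell (27.3%) and 3 rose (13.6%). AMY3 (contig 1865), an alpha-amylase of the plastid, had 10.2, 10.3 and 11.9 RPKM in H9, against 95.9, 82.1 and 115 RPKM in H6 (log2 fold change -3.19 ± 0.15, adjusted p = 4.25e-09). Of 12 contigs for dehydration and seed proteins 3 fell (25.0%) and 3 rose (25.0%), with 5 higher and 2 lower under DESeq2's scaling. AT4G21020 (contig 1267), a late embryogenesis abundant protein, had 53.9, 52.3 and 47.9 RPKM in H9, against 347, 354 and 597 RPKM in H6 (log2 fold change -3.09 ± 0.22). ANNAT2 (contig 95), an annexin that binds membranes with calcium, was the most abundant of that list, with 806, 848 and 801 RPKM in H9 and 1578, 1492 and 1418 RPKM in H6, and a log2 fold change of -0.88 ± 0.10 kept it under the limit. Among proteases 18 of 72 fell (25.0%) and 11 rose (15.3%), with 12 lower under DESeq2's scaling. RD19 (contig 162), a papain-like cysteine protease, had 226, 234 and 234 RPKM in H9, against 526, 469 and 528 RPKM in H6 (log2 fold change -1.15 ± 0.11). ATSBT5.2, a subtilase, had contigs in both directions: contig 2472 fell to 1.49, 1.45 and 2.19 RPKM in H9, against 21.9, 28.1 and 23.6 RPKM in H6, and contig 3565 rose to 48.04, 35.5 and 59.5 RPKM in H9, against 25.9, 20.7 and 11.4 RPKM in H6.

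Genes of the secondary wall gave the clearest rises. Counted jointly, 85 contigs for secondary wall cellulose, xylan, monolignols, laccases and the transcription factors of that wall held 51 that rose and 2 that fell, with a median log2 fold change of 1.23. They took 0.907 to 1.17% of the mapped reads in H9 and 0.419 to 0.562% in H6. The libraries of a group did not stand level in these genes. The third H6 library was the lowest of its group in 57 of the 85 (67.1%, against 39.3% of all contigs), and the second H9 library in 52 of the 85 (61.2%, against 32.3% of all contigs). Without the third H6 library 47 of the 51 wall contigs were still called higher (median log2 fold change 1.13), as were 47 without the first H9 library and 51 without the second H9 library (median 1.25).

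Cellulose of the secondary wall is made at the plasma membrane by complexes of 3 subunits, CESA4, CESA7 and CESA8. In that list 5 of 6 contigs rose and 0 fell, in every fit tried. The RT-qPCR primers that the study designed on these contigs are printed here, 5′ to 3′, because they tie each value to a stretch of the hemp transcript.
CesA4 forward, contig 804: ggggtggaatgctaagactg
CesA4 reverse, contig 804: ggcttccatttccccaaac
CesA7 forward, contig 6418: cctgatgtcaagcaatgtgg
CesA7 reverse, contig 6418: tgtatcttgtggggatgcac
CesA8 forward, contig 9355: gggagccaaaggaacctg
CesA8 reverse, contig 9355: gagctgttcaccacaagtgttac

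CESA4 (contig 804) had 506, 315 and 402 RPKM in H9, against 112, 142 and 77.6 RPKM in H6 (log2 fold change 1.87 ± 0.21, adjusted p = 5.58e-06). A second CesA4 contig (contig 812) had 378, 217 and 337 RPKM in H9, against 90.00, 96.6 and 41.04 RPKM in H6 (log2 fold change 2.02 ± 0.28). CESA7, named IRX3 in the table (contig 6418), had 98.6, 67.3 and 115 RPKM in H9, against 25.1, 25.9 and 7.65 RPKM in H6 (log2 fold change 2.25 ± 0.36). CESA8, named IRX1 (contig 9355), had 88.7, 60.5 and 95.8 RPKM in H9, against 25.2, 26.3 and 10.4 RPKM in H6 (log2 fold change 1.98 ± 0.29). All 3 subunits thus rose by factors between 3.70 and 4.78 in mean RPKM, with the third H6 library the lowest of the 6 libraries in each. CTL2 (contig 11397), a chitinase-like protein needed for ordered cellulose, had 111, 95.6 and 103 RPKM in H9, against 22.6, 27.2 and 11.00 RPKM in H6 (log2 fold change 2.34 ± 0.24). The COBRA-like IRX6 (contig 5530), which guides cellulose deposition, was the member not called, with 32.8, 23.1 and 35.2 RPKM in H9 and 21.4, 18.2 and 14.9 RPKM in H6 and a log2 fold change of 0.73 ± 0.16.

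Xylan, the main hemicellulose of the secondary wall, is a xylose chain built in the Golgi. In its list 14 of 29 contigs rose (48.3%, against 17.9% of all contigs) and 0 fell, with 18 higher under DESeq2's scaling. Without the first or the second H6 or the second H9 library 15 rose and 1 fell. Chain-building glycosyltransferases were among the contigs that rose. IRX14 (contig 4066) had 76.03, 61.2 and 73.5 RPKM in H9, against 29.5, 34.2 and 31.8 RPKM in H6 (log2 fold change 1.13 ± 0.14). GUT2, a chain-elongating enzyme of the same complex (contig 13249), had 53.5, 41.1 and 55.6 RPKM in H9, against 11.7, 15.1 and 6.64 RPKM in H6 (log2 fold change 2.16 ± 0.25). GAUT12 (contig 9235), which acts on the end sequence of the chain, had 29.3, 23.2 and 34.5 RPKM in H9, against 7.75, 6.78 and 4.49 RPKM in H6 (log2 fold change 2.19 ± 0.20, adjusted p = 1.04e-06). Enzymes that acetylate xylan rose as well: ESK1 (contig 6501) had 117, 91.8 and 113 RPKM in H9, against 46.3, 38.2 and 20.3 RPKM in H6 (log2 fold change 1.61 ± 0.22) and TBL36 (contig 5121), of the same family, had 173, 148 and 163 RPKM in H9, against 56.3, 44.1 and 36.1 RPKM in H6 (log2 fold change 1.81 ± 0.16). UXS5 (contig 1143), which supplies UDP-xylose, was the most abundant, with 476, 387 and 380.3 RPKM in H9 and 216, 222 and 191 RPKM in H6 and a log2 fold change of 0.97 ± 0.14, just under the limit.

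Lignin is made from monolignols, phenolic alcohols that leave the cell and are joined in the wall by laccases and peroxidases. For the phenylpropanoid and monolignol list 9 of 25 contigs rose and 2 fell, and 6 rose without the third H6 library. PAL1 (contig 1672), of the entry enzyme phenylalanine ammonia-lyase, had 66.9, 51.4 and 65.2 RPKM in H9, against 21.5, 20.2 and 12.9 RPKM in H6 (log2 fold change 1.74 ± 0.18). PAL2 (contig 2941) had 201, 156 and 231 RPKM in H9, against 97.6, 93.6 and 62.4 RPKM in H6 (log2 fold change 1.20 ± 0.18). HCT (contig 2469), which leads carbon toward lignin, had 139, 97.7 and 159.9 RPKM in H9, against 64.03, 55.7 and 26.4 RPKM in H6 (log2 fold change 1.43 ± 0.27). 4CL2 (contig 2190), the coenzyme A ligase, had 230.0, 149.5 and 238 RPKM in H9, against 110.0, 106 and 46.02 RPKM in H6, and its log2 fold change of 1.23 ± 0.27 became 0.92 without the third H6 library. OMT1, the caffeic acid O-methyltransferase, was split over contigs that went both ways: contig 8341 rose (4.65, 6.79 and 3.85 RPKM in H9 and 0.91, 0.99 and 0.81 RPKM in H6), and the shorter contig 4361 fell (196, 109.7 and 71.8 RPKM in H9 and 568, 415 and 469 RPKM in H6). Another, contig 6693, had 216, 174 and 173 RPKM in H9 and 104, 88.2 and 75.2 RPKM in H6, and its log2 fold change of 1.06 ± 0.13 became 0.96 without the third H6 library or without the first H9 library.

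Laccases, copper enzymes that oxidize monolignols, were the most uniform list. All 14 contigs rose in H9, and 13 did so without the third H6 or the first H9 library. These contigs took 0.0719 to 0.119% of the mapped reads in H9 and 0.015 to 0.0333% in H6. A contig of LAC17 (contig 9466) had 67.7, 39.1 and 81.8 RPKM in H9, against 4.11, 3.84 and 1.13 RPKM in H6 (log2 fold change 4.38 ± 0.39, adjusted p = 1.04e-06), the second largest rise of the named contigs, whereas another under the same name (contig 8833) had 179, 158 and 197 RPKM in H9, against 70.6, 80.7 and 77.05 RPKM in H6 (log2 fold change 1.21 ± 0.25). LAC4, named IRX12 in the table, was present as several contigs: contig 5768 had 131, 75.1 and 134 RPKM in H9, against 40.9, 33.2 and 16.7 RPKM in H6 (log2 fold change 1.90 ± 0.28). Contig 18137 had 28.5, 20.2 and 18.3 RPKM in H9, against 2.87, 4.23 and 1.24 RPKM in H6 (log2 fold change 3.00 ± 0.33). Both laccases are known for lignin of stems. Of class III peroxidases and NADPH oxidases 9 of 23 rose and 1 fell. ATPRX64 (contig 11948), a peroxidase of lignifying tissues, had 130.3, 93.5 and 105 RPKM in H9, against 22.4, 16.7 and 7.20 RPKM in H6 (log2 fold change 2.82 ± 0.31, adjusted p = 4.43e-06). ATPRX57 (contig 1589) was the one that fell, with 34.04, 54.04 and 35.3 RPKM in H9, against 152, 115 and 165 RPKM in H6 (log2 fold change -1.83 ± 0.22). The abundant PRXR1 (contig 963) had 1599, 1254 and 895 RPKM in H9 and 806, 896 and 859 RPKM in H6 and overlapped.

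Among arabinogalactan proteins, contigs matched to FLA11 and FLA12, fasciclin-like surface proteins of fiber and xylem cells, rose. FLA11 (contig 10048) had 226, 163 and 218 RPKM in H9, against 30.03, 40.9 and 14.03 RPKM in H6 (log2 fold change 2.83 ± 0.29, adjusted p = 2.93e-06). A contig matched to the FLA12 locus AT5G60490 (contig 1788) had 238, 158 and 232 RPKM in H9, against 17.3, 27.1 and 6.81 RPKM in H6 (log2 fold change 3.62 ± 0.37). A second FLA12 contig (contig 15115) had 83.98, 58.5 and 70.5 RPKM in H9, against 1.88, 21.6 and 0.72 RPKM in H6, so its H6 libraries were not alike, and its log2 fold change was 3.13 ± 0.79, or 5.79 without the second H6 library. Over all arabinogalactan proteins and extensins 4 of 12 contigs rose and 2 fell, counting contig 1788, which joined the list after its values had been seen. The 2 that fell were pollen Ole e 1 and extensin family proteins, AT5G15780 (contig 1294, log2 fold change -1.96 ± 0.16) and AT5G13140 (contig 6039, log2 fold change -1.51 ± 0.20).

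Transcription factors of the secondary wall rose in 9 of 11 contigs and fell in 0. They act as a cascade, in which NAC factors switch on MYB factors and these the wall genes. NST1 (contig 13708), the NAC switch of fibers, had 16.6, 14.6 and 15.5 RPKM in H9, against 7.99, 6.55 and 3.01 RPKM in H6 (log2 fold change 1.40 ± 0.27). VND1 (contig 11824), a NAC factor of vessels, had 30.8, 23.7 and 35.00 RPKM in H9, against 13.5, 11.1 and 10.99 RPKM in H6 (log2 fold change 1.32 ± 0.19). MYB46 (contig 17815), directly below them, had 7.38, 5.22 and 4.54 RPKM in H9, against 2.14, 1.91 and 1.25 RPKM in H6 (log2 fold change 1.69 ± 0.22, adjusted p = 1.75e-05). NAC073 (contig 9953), a later NAC of the cascade, had 84.7, 75.97 and 72.5 RPKM in H9, against 26.2, 34.3 and 25.9 RPKM in H6 (log2 fold change 1.42 ± 0.15). WLIM1 (contig 4635), a LIM protein that binds actin and is linked to phenylpropanoid genes, rose the furthest, with 211, 244 and 235 RPKM in H9, against 59.6, 46.3 and 38.1 RPKM in H6 (log2 fold change 2.25 ± 0.15). KNAT7 (contig 9937), a homeobox factor that modulates this wall program, had 58.04, 50.9 and 42.9 RPKM in H9 and 30.1, 28.97 and 29.7 RPKM in H6 and a log2 fold change of 0.76 ± 0.11, under the limit.

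**Figure D4:**
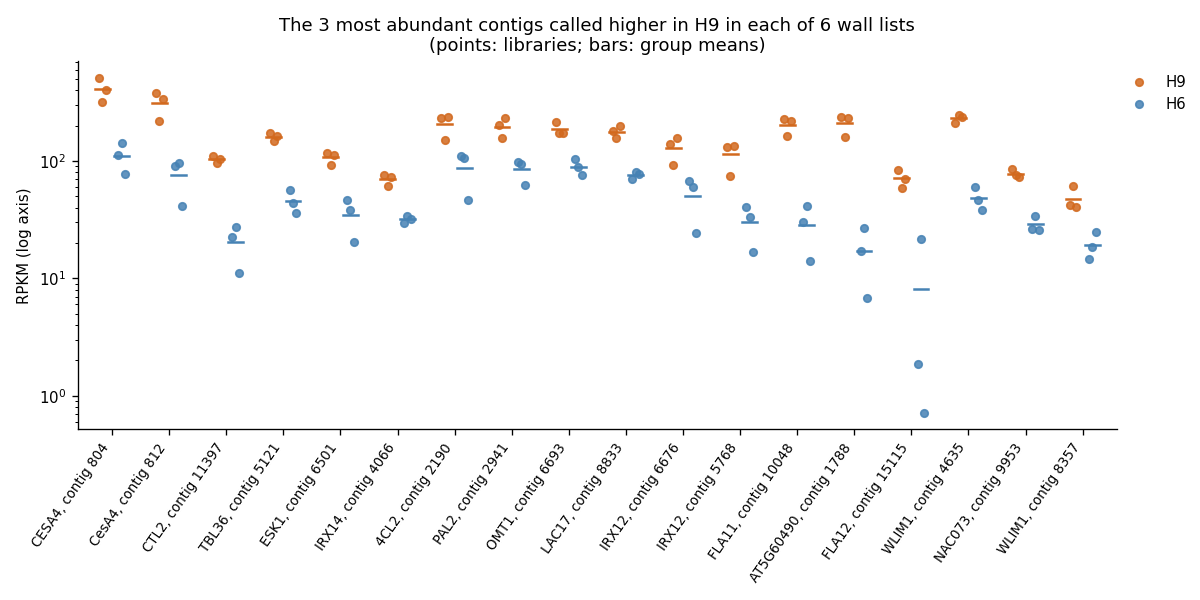
RPKM on a log axis of the 3 most abundant contigs called higher in H9 from each of 6 wall lists (x axis), with H9 libraries in orange to the left of H6 libraries in blue and bars at the group means. The H9 points lie between 40.3 and 506 RPKM, the H6 points between 0.72 and 142 RPKM, and within every contig the groups are apart.

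Genes of the primary wall were mixed. For expansins, which loosen walls, and xyloglucan enzymes 3 of 14 contigs rose (21.4%) and 4 fell (28.6%), and 1 rose without the third H6 library. Among all contigs the shares were 17.9% and 18.2%. Expansins went both ways. At-EXPA1 (contig 3058) and EXPA4 (contig 3411) rose, with log2 fold changes of 1.11 and 1.02, which became 0.97 and 0.77 without that library. EXPA8 (contig 362) had 64.6, 49.5 and 62.1 RPKM in H9, against 185, 161 and 119 RPKM in H6 (log2 fold change -1.41 ± 0.23). CSLC04 (contig 3000), which makes the xyloglucan backbone, had 17.9, 14.98 and 15.6 RPKM in H9, against 60.95, 58.9 and 77.1 RPKM in H6 (log2 fold change -2.04 ± 0.16, adjusted p = 3.05e-07). TCH4 (contig 2352), a touch-induced xyloglucan transferase, rose to 16.9, 19.1 and 16.4 RPKM in H9, against 1.69, 3.86 and 1.29 RPKM in H6 (log2 fold change 2.92 ± 0.28, or 3.54 without the second H6 library). XTH5 (contig 242), of the same family and the most abundant of the list, overlapped, with 606, 572 and 788 RPKM in H9 and 756, 836 and 827 RPKM in H6. For cellulose synthase-like proteins and endoglucanases 1 of 15 rose and 5 fell. Contigs named CSLE1 made up part of the falls, contig 3812 with 8.42, 9.20 and 3.43 RPKM in H9, against 43.5, 38.9 and 43.2 RPKM in H6 (log2 fold change -2.60 ± 0.29). ATCSLA09, a glucomannan synthase, rose in contig 6053 (29.6, 22.9 and 33.3 RPKM in H9 and 12.2, 9.95 and 9.72 RPKM in H6) and overlapped in contig 2357 (52.6, 37.1 and 50.3 RPKM in H9 and 48.2, 57.1 and 40.4 RPKM in H6).

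Of 46 contigs for pectin 9 rose and 10 fell (19.6% and 21.7%), near the shares of all contigs (17.9% and 18.2%), with 12 higher and 7 lower under DESeq2's scaling. PME61 (contig 811), a pectin methylesterase, was the most abundant of them in H9, with 1191, 1122 and 1165 RPKM in H9, against 569, 383 and 318 RPKM in H6 (log2 fold change 1.44 ± 0.36, adjusted p = 0.00289). AT5G62350 (contig 1480), of the inhibitor family of these enzymes, had 307, 278 and 224 RPKM in H9, against 734, 710.3 and 831 RPKM in H6 (log2 fold change -1.51 ± 0.12, adjusted p = 3.82e-07). DUF642 (contig 355), a wall protein that binds such esterases, had 168, 173 and 166 RPKM in H9, against 371, 409 and 495 RPKM in H6 (log2 fold change -1.35 ± 0.13). GAE1 (contig 353), the epimerase that supplies the galacturonate of pectin, had 129, 121 and 119 RPKM in H9, against 302, 222 and 263 RPKM in H6, and its log2 fold change of -1.11 ± 0.12 became -0.99 without the first H6 library.

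Markers of the tissues that form in secondary growth were examined next. Of 16 contigs for cambium and vascular patterning 6 rose (37.5%, against 17.9% of all contigs) and 0 fell. Without the third H6 or the third H9 library 4 rose. LBD4 (contig 15475), a factor at the border of cambium and phloem, had 21.5, 23.7 and 18.2 RPKM in H9, against 8.20, 6.01 and 4.17 RPKM in H6 (log2 fold change 1.78 ± 0.23). MP (contig 8046), the auxin response factor that starts vascular strands, had 6.68, 4.90 and 6.12 RPKM in H9, against 2.90, 2.20 and 1.92 RPKM in H6 (log2 fold change 1.33 ± 0.17). WAT1 (contig 3134), a vacuolar auxin transporter required for fiber walls, had 271, 221 and 259 RPKM in H9 and 161, 185 and 125 RPKM in H6 and, with a log2 fold change of 0.66 ± 0.14, stayed under the limit.

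For phloem and sieve elements 3 of 9 contigs rose (33.3%, against 17.9% of all contigs) and 0 fell. AT3G01680, the SEOR1 locus of a filament protein of sieve elements, had a scarce contig that rose and an abundant one that did not. The scarce contig 6809 had 14.7, 9.23 and 14.8 RPKM in H9, against 0.41, 1.32 and 0.39 RPKM in H6 (log2 fold change 4.17 ± 0.41, or 4.99 without the second H6 library), and the abundant contig 675 had 187, 123 and 246 RPKM in H9 and 163, 169 and 78.6 RPKM in H6 and overlapped. PP2-A9 (contig 4446), of the phloem lectin family, had 71.03, 79.9 and 72.9 RPKM in H9, against 38.3, 34.7 and 20.8 RPKM in H6 (log2 fold change 1.24 ± 0.18).

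Genes of vessel death gave no single direction. Of 3 contigs, BFN1 (contig 4170), a nuclease, fell (16.2, 11.4 and 10.6 RPKM in H9 and 28.9, 27.6 and 41.5 RPKM in H6), MC9 (contig 12582), a metacaspase, was not called (23.8, 14.3 and 22.5 RPKM in H9 and 26.6, 24.6 and 25.2 RPKM in H6), and RNS3 (contig 18342), a ribonuclease, rose (37.8, 24.1 and 44.99 RPKM in H9 and 15.7, 14.9 and 5.59 RPKM in H6). The log2 fold change of RNS3, 1.56 ± 0.51, lost its call without the third H6 library (1.21) or the third H9 library (1.33). Root genes rose in 3 of 4 contigs, among them LRP1 (contig 16207), named for lateral root primordia, with 9.77, 7.43 and 8.73 RPKM in H9, against 1.91, 1.20 and 1.98 RPKM in H6 (log2 fold change 2.33 ± 0.20). For epidermis, stomata and trichomes 1 of 6 rose and 1 fell, 3 rising under DESeq2's scaling, 2 without the first or the third H6 or the third H9 library, and 0 without the second H9 library.

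Division and the cytoskeleton held more rises than falls. For the cell cycle, replication and histones 8 of 33 contigs rose (24.2%) and 2 fell (6.06%), with 14 higher under DESeq2's scaling. Among all contigs 17.9% rose and 18.2% fell. CYCD3;1 (contig 6063), a cyclin that drives cells of the cambium into division, had 36.5, 36.99 and 39.1 RPKM in H9, against 15.97, 16.1 and 11.5 RPKM in H6 (log2 fold change 1.36 ± 0.14, adjusted p = 3.76e-06). FBL17 (contig 20555), which removes inhibitors of the cycle, had 9.53, 8.35 and 9.60 RPKM in H9, against 3.22, 3.63 and 1.83 RPKM in H6 (log2 fold change 1.66 ± 0.20). The 2 that fell were histones: HIS1-3 (contig 2383), a linker histone induced by drought, had 161, 149 and 131 RPKM in H9, against 492, 435 and 551 RPKM in H6 (log2 fold change -1.76 ± 0.11), and AT5G02570 (contig 554), a histone H2B, had 377, 450.2 and 298 RPKM in H9, against 749, 891 and 793 RPKM in H6 (log2 fold change -1.13 ± 0.13). Of 54 contigs for microtubules, kinesins and actin 13 rose (24.1%) and 3 fell (5.56%), with 20 higher under DESeq2's scaling. TUB8 (contig 3122), a beta-tubulin, had 294, 250.1 and 290.4 RPKM in H9, against 127, 130.4 and 96.9 RPKM in H6 (log2 fold change 1.23 ± 0.13). MAP70-5 (contig 9681), which shapes the bands of the secondary wall, had 42.01, 36.4 and 47.5 RPKM in H9, against 14.8, 13.2 and 6.54 RPKM in H6 (log2 fold change 1.86 ± 0.23). AT5G37478 (contig 17762), a TPX2 family protein that binds microtubules, rose by 10.1 times in mean RPKM, with 31.98, 25.1 and 27.5 RPKM in H9, against 3.41, 3.00 and 1.94 RPKM in H6.

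One-carbon metabolism supplies the methyl groups that O-methyltransferases put on monolignols. There 5 of 12 contigs rose (41.7%) and 0 fell, against 17.9% higher and 18.2% lower among all contigs. MTO3 (contig 1452), an S-adenosylmethionine synthase, had 379.5, 289 and 376 RPKM in H9, against 63.6, 72.2 and 36.8 RPKM in H6 (log2 fold change 2.59 ± 0.22, adjusted p = 7.23e-07). MAT3 (contig 2372), of the same enzyme, had 540.4, 483 and 553 RPKM in H9, against 164, 207 and 184 RPKM in H6 (log2 fold change 1.49 ± 0.11). ATMS1, the methionine synthase, rose in contig 2444 (137, 87.4 and 139.7 RPKM in H9 and 42.1, 38.1 and 29.8 RPKM in H6), while the abundant contig 54 stayed just under the limit, at a log2 fold change of 0.94 ± 0.14. In sucrose cleavage and nucleotide sugars 7 of 34 rose (20.6%) and 3 fell (8.82%), 1 lower under DESeq2's scaling. SUS4 (contig 839), a sucrose synthase, had 589, 471 and 644 RPKM in H9 and 378, 266 and 244 RPKM in H6 and a log2 fold change of 0.93 ± 0.17. Myo-inositol oxygenases, which lead inositol to UDP-glucuronate, parted: MIOX4 (contig 12786) rose to 40.9, 67.4 and 86.4 RPKM in H9, against 5.68, 2.98 and 2.81 RPKM in H6 (log2 fold change 4.09 ± 0.46, adjusted p = 5.82e-06), and MIOX1 (contig 14402) fell to 3.41, 2.04 and 0.82 RPKM in H9, against 7.47, 26.5 and 4.66 RPKM in H6 (log2 fold change -2.63 ± 0.57, or -1.55 without the second H6 library). In glycolysis and fermentation 2 of 26 rose (7.69%) and 1 fell (3.85%), both shares below those of all contigs. The count of rises was 6 under DESeq2's scaling and 5 without the first H6 library. It was 4 without the second H6 or the second H9 library, and 1 without the third H6 library.

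Hormone lists were called about as often as all contigs (36.0%), at 28.6% for auxin, 36.4% for gibberellin and brassinosteroid and 32.1% for ethylene, cytokinin and abscisic acid. In the auxin list 8 of 35 contigs rose and 2 fell, with 13 higher under DESeq2's scaling. ABP1 (contig 5675), an auxin-binding protein, had 10.2, 11.9 and 11.9 RPKM in H9, against 83.6, 75.9 and 96.2 RPKM in H6 (log2 fold change -2.93 ± 0.15, adjusted p = 1.20e-08). NIT4 (contig 6659), a nitrilase that handles cyanide products, had 22.04, 25.5 and 24.7 RPKM in H9, against 98.7, 86.1 and 99.4 RPKM in H6 (log2 fold change -1.99 ± 0.11). PGP9 (contig 3838), a transporter of the P-glycoprotein family, had 59.6, 43.5 and 56.9 RPKM in H9, against 22.8, 21.99 and 16.00 RPKM in H6 (log2 fold change 1.39 ± 0.15). ARF9 (contig 2224), an auxin response factor, had 29.4, 33.5 and 35.3 RPKM in H9, against 11.3, 12.9 and 13.96 RPKM in H6 (log2 fold change 1.35 ± 0.12). For gibberellin and brassinosteroid 3 of 22 rose and 5 fell, with 5 higher under DESeq2's scaling or without the second H6 library. GASA4 (contig 1059), a gibberellin-induced peptide of growing zones, had 39.1, 37.6 and 28.1 RPKM in H9, against 120.5, 190.0 and 128 RPKM in H6 (log2 fold change -2.08 ± 0.20), while AT2G30810 (contig 12353), of the same peptide family, had 42.9, 46.4 and 35.1 RPKM in H9, against 8.85, 8.66 and 6.36 RPKM in H6 (log2 fold change 2.37 ± 0.15).

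For ethylene, cytokinin and abscisic acid 7 of 28 contigs rose and 2 fell. EFE, the oxidase that releases ethylene, fell in contig 5071, with 29.9, 29.7 and 21.5 RPKM in H9, against 76.9, 72.7 and 86.04 RPKM in H6 (log2 fold change -1.56 ± 0.15), and remained under the limit in the abundant contig 1497, with 727, 662 and 799 RPKM in H9 and 539.5, 448 and 385 RPKM in H6 (log2 fold change 0.66 ± 0.14). HAI3 (contig 11773), a phosphatase that abscisic acid induces, had 3.99, 2.45 and 3.48 RPKM in H9, against 26.8, 14.3 and 11.7 RPKM in H6 (log2 fold change -2.42 ± 0.30). AHP4 (contig 18393), a phosphotransfer protein of the cytokinin relay, had 6.28, 8.15 and 7.89 RPKM in H9, against 2.21, 2.01 and 1.36 RPKM in H6 (log2 fold change 1.99 ± 0.23).

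The surface and the traffic of the cell were covered by further lists. Among all contigs 17.9% rose and 18.2% fell. The shares were 6.25% and 12.5% for wax, cutin and suberin, and 6.67% and 26.7% for lipid transfer proteins. They were 11.1% and 11.1% for aquaporins, and 23.1% and 7.69% for the transport list. In wax, cutin and suberin 1 of 16 contigs rose and 2 fell: CYP96A1 (contig 2106), matched to a wax-forming P450 family, had 31.7, 28.04 and 22.3 RPKM in H9, against 104, 110.2 and 108 RPKM in H6 (log2 fold change -1.99 ± 0.22), and AT5G41040 (contig 11120), the feruloyl transferase of suberin, had 8.43, 11.3 and 9.01 RPKM in H9, against 4.14, 2.04 and 1.12 RPKM in H6 (log2 fold change 1.98 ± 0.34, or 2.59 without the first H6 library). Lipid transfer proteins, small carriers of the wall, rose in 1 and fell in 4 of 15 contigs, with 1 lower among contigs of at least 100 reads. AT2G37870 (contig 3713) fell to 39.5, 41.7 and 36.4 RPKM in H9, against 133, 141 and 201 RPKM in H6. Of 9 aquaporins, water channels of plasma membrane and vacuole, 1 rose and 1 fell: TIP1;3 (contig 3665), of the vacuole, had 2.94, 3.81 and 1.81 RPKM in H9, against 45.5, 29.6 and 44.9 RPKM in H6 (log2 fold change -3.83 ± 0.28, adjusted p = 2.40e-07), and the abundant gamma tonoplast protein (contig 710) had 788, 762 and 973 RPKM in H9 and 1348, 1288 and 1224 RPKM in H6, with a log2 fold change of -0.62 ± 0.12. NIP4;2 (contig 21861) was the one that rose, and its log2 fold change of 1.21 ± 0.33 became 0.99 without the second H6 library and 0.90 without the second H9 library. In the transport list 18 of 78 rose and 6 fell, 3 lower under DESeq2's scaling and 4 without the first H6 library. AT2G37900 (contig 3289), a peptide and nitrate transporter family member, had 145, 132 and 197 RPKM in H9, against 62.6, 51.2 and 29.1 RPKM in H6 (log2 fold change 1.72 ± 0.24). AT1G70260 (contig 11409), a transporter of the UMAMIT family, was among the 15 largest rises, with 27.7, 28.3 and 5.26 RPKM in H9, against 1.98, 3.05 and 2.18 RPKM in H6, so that 1 of the H9 libraries lay far below the other two (log2 fold change 3.05 ± 0.48).

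Receptors and P450 enzymes rose about as often as all contigs (17.9%), in 21.3% and 14.6% of contigs, and defence proteins rose in 33.9%. Of receptor-like and leucine-rich repeat kinases 13 of 61 contigs rose and 5 fell, for example AT5G18500 (contig 5690), with 99.8, 87.1 and 96.97 RPKM in H9, against 32.6, 38.1 and 32.9 RPKM in H6 (log2 fold change 1.44 ± 0.11). Of cytochrome P450 enzymes 6 of 41 rose and 4 fell: CYP714A1 (contig 2208), whose family deactivates gibberellins, had 58.2, 46.5 and 28.5 RPKM in H9, against 137, 105 and 148 RPKM in H6 (log2 fold change -1.57 ± 0.22). Of major latex and defence proteins 19 of 56 rose and 4 fell. MLP423 (contig 2062), a major latex-like protein, was one of those that fell, with 409.9, 439.8 and 300.3 RPKM in H9, against 817, 950.4 and 959.8 RPKM in H6 (log2 fold change -1.26 ± 0.26), whereas EP3 (contig 13996), a class IV chitinase, had 28.7, 28.1 and 22.2 RPKM in H9, against 5.98, 9.76 and 10.6 RPKM in H6 (log2 fold change 1.57 ± 0.27).

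Clock genes are a guide to the hour at which tissue was frozen, which the labels do not give. In the circadian list 1 of 12 contigs rose and 1 fell (16.7% called, against 36.0% of all contigs), with 2 higher and 0 lower under DESeq2's scaling and 2 higher without the first H6 library. LHY (contig 2389), which peaks around dawn, had 425, 376 and 410.2 RPKM in H9, against 119, 115 and 99.9 RPKM in H6 (log2 fold change 1.84 ± 0.11, adjusted p = 2.93e-08). TOC1 (contig 124), which peaks around dusk, had 8.21, 9.58 and 9.75 RPKM in H9, against 18.8, 16.98 and 20.5 RPKM in H6, and its log2 fold change of -1.04 ± 0.12 became -0.97 without the third H6 library and -0.96 without the first H9 library. AT2G21660 (contig 469), a glycine-rich RNA-binding protein that peaks in the evening, had 328, 398 and 319 RPKM in H9 and 384, 311 and 425 RPKM in H6 and overlapped. The part of the sampling hour in the other results was not tested. In light signalling 2 of 25 rose and 1 fell, with 4 higher and 0 lower under DESeq2's scaling: RPT2 (contig 6967), a partner of phototropins in bending toward light, had 141, 143 and 169 RPKM in H9, against 55.8, 44.3 and 45.04 RPKM in H6 (log2 fold change 1.63 ± 0.12). FHL (contig 3939), which carries phytochrome A into the nucleus, had 62.2, 61.4 and 44.8 RPKM in H9, against 114, 124 and 130.2 RPKM in H6 (log2 fold change -1.15 ± 0.13).

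Several of the 15 largest rises lay outside the wall lists. AT5G62040 (contig 2950), matched to BROTHER OF FT AND TFL1 of the family that controls flowering and meristem fate, had 69.6, 84.8 and 36.02 RPKM in H9, against 2.09, 3.41 and 1.46 RPKM in H6 (log2 fold change 4.75 ± 0.42, adjusted p = 9.56e-07), the largest rise of the named contigs. AT1G24620 (contig 13348), a calmodulin-like calcium sensor, had 160.0, 244 and 257 RPKM in H9, against 24.03, 14.7 and 6.39 RPKM in H6 (log2 fold change 3.87 ± 0.36). AT1G15125 (contig 19936), a methyltransferase of the S-adenosylmethionine-dependent kind, had 28.5, 17.1 and 31.1 RPKM in H9, against 2.70, 3.49 and 1.84 RPKM in H6 (log2 fold change 3.25 ± 0.30). The groups did not overlap in any of the 3, as the rule for the largest rises required. AT5G26010 (contig 3216), a putative protein phosphatase 2C, had 91.5, 78.1 and 57.7 RPKM in H9, against 8.55, 9.15 and 9.37 RPKM in H6 (log2 fold change 3.05 ± 0.25). AT1G13635 (contig 8219), annotated as a DNA repair glycosylase, had 38.9, 28.6 and 29.6 RPKM in H9, against 3.75, 4.66 and 1.94 RPKM in H6 (log2 fold change 3.22 ± 0.25). The remaining ones have no described function in the table: AT2G31930 (contig 21314), AT4G24720 (contig 23467) and contig 13795 rose with log2 fold changes of 3.34 ± 0.29, 3.51 ± 0.21 and 3.53 ± 0.41.

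Contigs under 1 name did not always move together. There were 192 names with 2 or more contigs, covering 445 contigs, and 43 of these names had at least 2 called contigs. In 8 of the 43 the calls were opposite. They were AT1G30700, AT1G58170, AT5G41761, ATSBT5.2, OMT1, PAP27, PCK1 and TT7, named here after their values were seen. PCK1, the carboxykinase that turns stored carbon toward sugar, had contig 2692 (2365 bases) higher, with 15.1, 27.5 and 35.4 RPKM in H9, against 7.98, 7.22 and 6.12 RPKM in H6, and contig 528 (2518 bases) lower, with 33.8, 33.7 and 15.6 RPKM in H9, against 121, 84.2 and 79.2 RPKM in H6. AT5G41761, of undescribed function, had contig 4920 higher, with 475, 495 and 354 RPKM in H9, against 239, 198 and 171 RPKM in H6, and contig 5279 lower, with 25.5, 27.4 and 11.4 RPKM in H9, against 109.7, 101 and 189 RPKM in H6. PAP27, a purple acid phosphatase, had contig 649 lower, with 21.6, 33.3 and 16.7 RPKM in H9, against 139.6, 314 and 417 RPKM in H6, contig 4667 lower, with 76.6, 77.6 and 62.7 RPKM in H9, against 173, 198 and 293 RPKM in H6, and the scarce contig 9999 higher, with 6.34, 4.71 and 8.13 RPKM in H9, against 3.62, 3.84 and 1.77 RPKM in H6. Whether such contigs are genes of a family, alleles or pieces of 1 transcript was not tested, and their names alone do not tell.

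The rest of the series holds 1 other step that shares no library with this one, from H15 to H20, and the contrast (H9 against H6) minus (H20 against H15) was tested in the same model. The contrast was called for 1744 contigs (48.2%), with 950 higher (26.2%) and 794 lower (21.9%) in the first step. In the last step itself 491 contigs were called (13.6%), 190 higher and 301 lower in H20. Of the 647 contigs that rose in H9, 17 rose again in H20 (2.63%) and 63 fell there (9.74%), against 5.25% higher and 8.31% lower among all contigs. Of the 658 that fell in H9, 118 rose in H20 (17.9%) and 21 fell again (3.19%).

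Heat shock genes reversed most visibly. Of the 37 that fell in H9, 28 were called higher in H20 than in H15 and the others were not called. HSP90.1 averaged 673 RPKM in H20 and 13.2 RPKM in H15, a last-step log2 fold change of 5.65 ± 0.18, and its steps differed by -13.25 ± 0.27. AtHSP101 averaged 428 RPKM in H20 and 7.11 RPKM in H15, with a step difference of -13.22 ± 0.38. The H20 levels remained below those of H6 in both. Secondary wall genes did not reverse. Of the 51 that rose in H9, 0 were called by edgeR in either direction in the last step (7 had an unadjusted p under 0.05). A called step difference was found for 48 of the 51. Among all 647 contigs that rose, 567 were not called in the last step and 562 had a called step difference. The step difference contains the H9 against H6 change by which these contigs were picked, so it is no separate support. CESA4 (contig 804) averaged 1421 RPKM in H20 and 1580.5 RPKM in H15, above its level in H9, with a last-step log2 fold change of -0.18 ± 0.20 and a step difference of 2.06 ± 0.29. FLA11 averaged 733 RPKM in H20 and 783 RPKM in H15, with a step difference of 2.95 ± 0.39.

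Other groups took other courses. Of the 10 flavonoid contigs that fell, flavanone-3-hydroxylase averaged 1.25 RPKM in H20 and 1.10 RPKM in H15, whereas chalcone synthase averaged 24.2 RPKM in H20 and 8.98 RPKM in H15 and was called higher there (log2 fold change 1.42 ± 0.34). In the clock list the last step had 6 of 12 contigs lower in H20 and 0 higher, and 5 had a called step difference. Some genes that rose in H9 were lower again later. PME61 averaged 90.1 RPKM in H20 and 325 RPKM in H15 (last-step log2 fold change -1.87 ± 0.36), both below H9. The calcium sensor AT1G24620 averaged 7.75 RPKM in H20 and 38.5 RPKM in H15, and the steps differed by 6.21 ± 0.51. MIOX1, which had fallen in H9, averaged 1255 RPKM in H20 and 246 RPKM in H15, a last-step log2 fold change of 2.32 ± 0.49.

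**Figure D5:**
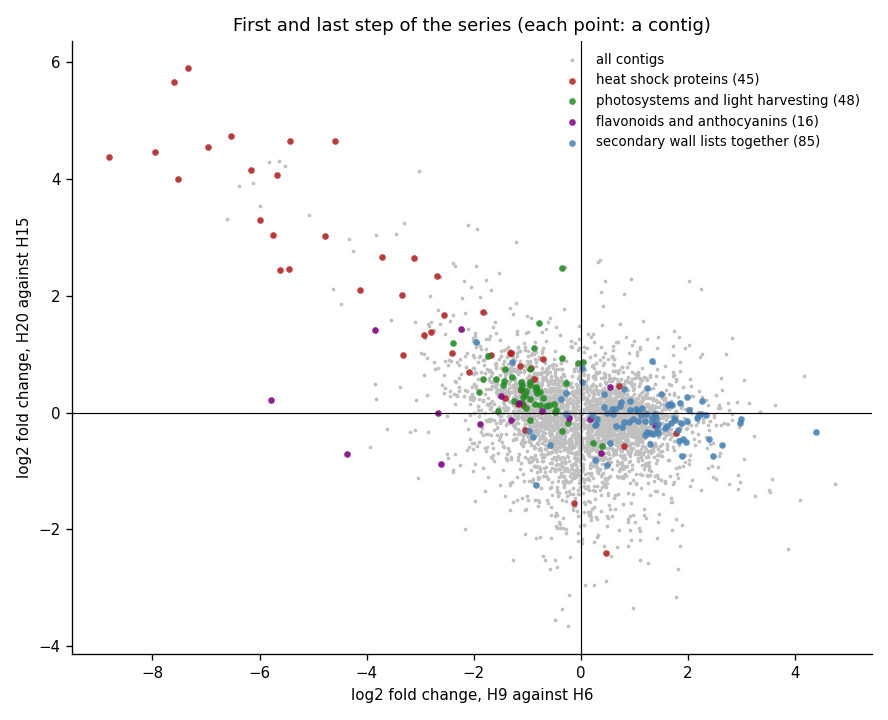
Log2 fold change of H9 against H6 (x axis) and of H20 against H15 (y axis) for each of the 3622 contigs (grey), with 4 groups of genes in colour. Heat shock contigs spread to the upper left, with 28 of the 37 that fell in H9 called higher in H20, and secondary wall contigs lie to the right and near 0 on the y axis, with 51 of 85 called higher in H9.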

How the data were processed

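RNA from pools of 20 whole hypocotyls was made into stranded libraries and sequenced in pairs. The read length stated by the labels and that in the study's methods differ. The authors trimmed the reads, assembled contigs de novo in CLC Genomics Workbench, mapped the reads back and annotated contigs by similarity to Arabidopsis proteins. The deposited counts are whole numbers of reads mapped uniquely to a contig, and the deposited RPKM values are these counts scaled by contig length and by the mapped reads of the library. Since only uniquely mapped reads were counted, near-identical contigs can share or lose reads. The authors kept contigs that differed among the 4 time points in these same libraries, so p-values here are calls within that selection. Columns with p-values and FDR of the authors' own test were not used.

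Totals of mapped reads were recovered from counts and RPKM and used as library sizes with TMM factors (0.926 to 1.06). edgeR 4.0.16 (R 4.3.3) fitted all 12 libraries in 1 quasi-likelihood model with 8 residual degrees of freedom, a biological coefficient of variation of 0.168 and 3 libraries per group. The pools are separate samples of 1 batch. Adjusted p values are Benjamini-Hochberg over 3622 contigs, and calls were limited to adjusted values below 0.05 with a change over 1 on the log2 scale. The script was tested on simulated data. Alternatives were DESeq2 1.42.0, RLE factors, no TMM factors, the 6 libraries alone, limma 3.58.1 on log2(RPKM + 1) and log2(RPKM + 0.1), at least 100 reads in 3 libraries, an adjusted p under 0.01, a replicate block and leaving out each library.

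The members and the 46 lists were chosen with earlier results of these data known. Named contigs are the 15 largest rises and the 15 largest falls among called, annotated contigs whose groups do not overlap and that reach 10 RPKM in the higher group, the 4 most abundant called contigs, the 2 largest changes and the most abundant uncalled contig of each list, the 5 most abundant contigs of each group, and contigs the study names. Contigs under 1 name with opposite calls were added after their values were seen. Lists were cleaned by annotation, and 2 were split; several heat shock contigs (AtHSP101, contig 1629, the heat stress factors), flavanone-3-hydroxylase and FLA12 contig 1788 joined their lists after values had been seen. Figures were drawn with matplotlib 3.10.9.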

Additional observations from a re-analysis of the deposited data

Results flagged for a closer look

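Among the 30 largest changes, 20 were flagged for opposite calls in the first and the last step together with a called step difference. That difference came from the edgeR model ((H9 minus H6) minus (H20 minus H15), log2, adjusted over 3622 contigs). Since these calls picked the 20 contigs, the differences below describe them and are no separate support. Of the rises, AT1G24620 (contig 13348) had the widest difference, 6.21, followed by AT5G62040 (contig 2950) with 5.97 and MIOX4 (contig 12786) with 5.58. For contig 13795 the difference was 4.89, for AT4G24720 (contig 23467) 4.84 and for AT1G15125 (contig 19936) 4.68. These 6 rose in H9 and fell in H20.

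The other 14 fell in H9 and rose in H20. HSP90.1 (contig 256) differed by -13.25, AtHSP101 (contig 156) by -13.22 and contig 1629, similar to a class I small heat shock protein, by -13.19. HSP17.6II (contig 453) differed by -12.41, heat shock protein 18 (contig 118) by -11.51, AT5G37670 (contig 718) by -11.49 and the low molecular weight heat shock protein (contig 396) by -11.27. AT2G29500 (contig 212) differed by -10.31, AT2G45380 (contig 488) by -10.26, AT5G48570 (contig 530) by -10.11 and APX2 (contig 1671) by -10.06. AT3G10020 (contig 781) differed by -9.90, the peptidylprolyl isomerase (contig 319) by -9.53 and AT1G53540 (contig 187) by -9.29. Every library of H9 lay below every library of H6 in these 14, as the rule for the largest falls required. Growth temperature and hour of sampling were not tested as their source.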

How the results depend on the processing

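The count of 1305 calls was 1187 to 1370 under the other settings tried with all libraries and 1208 to 1381 when 1 library was left out. For the difference between the steps, the count was 1744, with 1639 under limma on log2(RPKM + 1), 1854 under DESeq2 and 1846 under RLE factors, and 1710 to 1773 when 1 library was left out. No contig was called in the opposite direction under any setting, and all 30 largest changes were called in each. The scaling changed the balance most: DESeq2 called 909 higher and 458 lower, and RLE factors 913 higher and 457 lower. Without the third H6 library 1147 of the 1305 calls were made again, fewer than without any other library. Deviations of libraries with the same replicate number correlated at 0.0238, -0.163 and -0.281, and those with different numbers at -0.202 to 0.306. Deviations from a mean of 3 libraries are tied to each other, so these values cannot tell whether the numbers pair the samples. With the replicate block 1303 contigs were called (646 higher, 657 lower), and 1741 for the step difference. For the 511 contigs of the naming rule over 15 settings, 7345 results kept their side of the threshold, 156 lost a call, 150 gained one and 0 reversed. Low counts limit the scarcest contigs, which had 11 to 13 reads in single libraries.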
